A study of Python bivittatus with 8 samples.

Results

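The left ventricle of the Burmese python (Python bivittatus) at 4 days after a meal, when the study places the onset of cardiac regression, was compared with the same tissue at 1 day, when the heart is growing. Members were chosen by their labels alone: 2 libraries of poly-A RNA labelled 4DPF (days post-fed) and 2 labelled 1DPF, which are 4 of the 8 libraries of the series. All snakes were captive-bred and are given the genotype WT in the labels. Before feeding they were kept without food for 28 days, and the meal was rodents amounting to 25% of the snake's own mass. The 4DPF snakes were killed on day 4 and the 1DPF snakes on day 1. The remaining 4 libraries came from 2 groups treated in the same way: 6DPF, killed on day 6, and fasted, killed at the end of the fast with no meal. Those 4 entered the filter for tested genes, the scaling, the estimate of spread and the average abundance of each gene. They are otherwise shown for their levels. The labels do not say whether a library is 1 snake or a pool. They give n = 6 snakes for sequencing and proteomics, fewer than the 8 libraries, so p-values reflect how far these libraries vary among themselves, which can be technical in part.

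The python heart enlarges within days of a large meal and then returns to its fasted size, so a single animal passes through physiological growth and its reversal. Physiological growth of heart muscle cells is driven in mammals in large part by insulin-type signals acting through AKT. FoxO transcription factors, which the study's title names, are held out of the nucleus by AKT, and in mammals they raise genes for protein breakdown and autophagy when that signal falls. The series asks which transcripts accompany the turn from growth to shrinkage, and the step between day 1 and day 4 spans that turn.

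Genes carry numbers but no names in the table used here, and none of its 21368 identifiers was matched to a symbol. FoxO factors, atrophy ligases, sarcomere genes and cell type markers were therefore not analysed, and the ventricular label could not be set against its marker genes. The genes are described by how far, at what abundance and along which course they changed, with 4 given by number. In these bulk samples fewer cells of a type and less RNA per cell cannot be told apart.

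Library totals were 40500773 and 38013128 counts at 4DPF and 36972977 and 40643771 counts at 1DPF, so that 1 read was worth between 0.0246 and 0.027 CPM, the count scaled to a library of fixed size. The 2 libraries of a group differed by more than sampling noise, with a chi-square per degree of freedom of 61.7 at 4DPF and 67.3 at 1DPF. No library stood wholly apart. Among the 4 libraries the first principal component held 52.7% of the variance and set the 4DPF libraries, at 47.9 and 40.5, against the 1DPF libraries, at -39.8 and -48.6. The second held 31.8% and did not follow the groups: it placed 4DPF replicate 1 and 1DPF replicate 2 at -34.3 and -34.7, and 4DPF replicate 2 and 1DPF replicate 1 at 33.7 and 35.3. What this second axis stands for was not tested.

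The transcriptome shifted by an amount larger than the distance between replicates. To turn the gene composition of a 4DPF library into that of a 1DPF library, between 12.8% and 15.3% of its reads would have to be assigned to other genes, over the 4 pairs of libraries. Between the 2 libraries of a group the same measure was 8.07% at 4DPF and 7.88% at 1DPF. Genes averaging at least 3 in log2 CPM, here and below over all 8 libraries, were counted where they differed more than 2-fold. Their number was 488 to 749 between a 4DPF and a 1DPF library. They numbered 238 between the 4DPF libraries and 280 between the 1DPF libraries.

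At 4DPF 673 genes had risen and 373 had fallen relative to 1DPF, which is 3.96% and 2.2% of the 16986 genes tested, or 6.16% together (edgeR quasi-likelihood test with Benjamini-Hochberg adjusted p under 0.05). Among the called genes the rises were the larger changes. Their median log2 fold change was 1.10, with quartiles at 0.82 and 1.81, while the falls had a median of -0.81 and quartiles at -1.05 and -0.66. Over all tested genes the median was -0.02. Falls were mostly modest: 266 of the 373 (71.3%) were under 2-fold, against 276 of the 673 rises (41%). A change of 4-fold or more was found in 143 rises (21.2%) and in 21 falls (5.63%). Of the rises, 2 genes had no read in either 1DPF library, and with these set to their bound over 3 reads per library the median was still 1.10. The smallest change called was 0.49 on the log2 scale in both directions. At 1DPF the rises had a median of 9.39 CPM and the falls 43.1 CPM, and at 4DPF 21.4 and 24.3 CPM. Scarce genes were called only at larger changes, so the sizes of rises and falls were not compared at like abundance.

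In all 1046 called genes both 4DPF libraries lay on the same side of both 1DPF libraries. This separation is common by itself, since it was also found in 27.3% of all tested genes with 4DPF above and in 28.9% with 4DPF below. A wider gap was less common. The nearest 4DPF and 1DPF libraries were at least 2-fold apart in 272 of the 673 rises (40.4%) and 66 of the 373 falls (17.7%). Of all tested genes, called or not, 466 had such a gap with 4DPF above and 191 with 4DPF below, together 3.87%. Calls and gaps use the same libraries, so an excess over that share was nearly certain beforehand. DESeq2 called 2205 of 16376 genes (13.5%), among them 672 of the 673 rises and 371 of the 373 falls. With any 1 library left out edgeR called fewer genes, also where that was a fasted library, which is not part of the comparison. Why was not tested. Without a 4DPF or a 1DPF library, the median log2 fold change was 1.07 to 1.17 for the 673 rises. For the 373 falls it was -0.85 to -0.72. On the 4DPF and 1DPF libraries alone, which leaves 2 residual degrees of freedom, edgeR called 0 (3758 genes at an unadjusted p under 0.05, and DESeq2 on all libraries 2205). All 1046 genes kept their direction in each of these fits. With both 4DPF libraries on 1 side of both 1DPF libraries, this was nearly certain beforehand and is no sign of robustness.

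**Figure D1:**
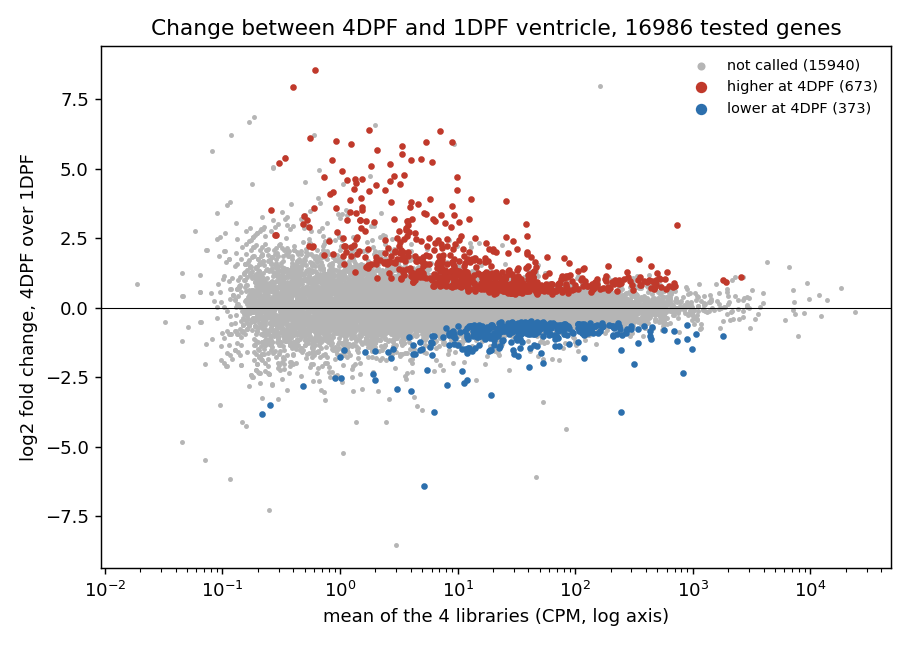
Each point is 1 of the 16986 tested genes, with its mean CPM over the 4DPF and 1DPF libraries on a log axis and its log2 fold change, 4DPF over 1DPF, on the other. Red points are the 673 genes called higher at 4DPF and blue points the 373 called lower; the large red values at low abundance have no blue counterpart of the same number.

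The genes that rose occupied 5.32% and 5.22% of all reads in the 4DPF libraries, against 2.78% and 2.69% in the 1DPF libraries. Those that fell occupied 2.11% and 1.98% at 4DPF, against 4.02% and 3.99% at 1DPF. Calling and shares use the same libraries, so the shift is overstated. The 10 largest gains made up 29.6% of the CPM gained by the 673 rises. The 10 largest losses made up 35.7% of the CPM lost by the 373 falls. Of the 50 most abundant genes 1 was called, a rise, and of the 100 most abundant 3 rose and 2 fell, a share close to the 6.16% over all tested genes.

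The called gene that gained the most CPM, picked out after its values were seen and 1767 bases long, stood at 3503 and 3535 CPM at 4DPF, against 1509 and 1790 CPM at 1DPF. Its libraries in the other groups had 2168 and 2571 CPM at 6DPF and 1990 and 1454 CPM when fasted, so that both 4DPF values were above all the others. The log2 fold change was 1.09 (SE 0.21, edgeR adjusted p = 0.033). The called gene that lost the most, picked out in the same way and 3440 bases long, stood at 1297 and 1102 CPM at 4DPF, against 2300 and 2510 CPM at 1DPF (log2 fold change -1.004, SE 0.21, edgeR adjusted p = 0.0361). It was at 889.9 and 623 CPM at 6DPF and at 543 and 569 CPM in fasted ventricle, so its 4DPF level was still above all 4 of those libraries.

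Among genes averaging at least 3 in log2 CPM over all 8 libraries, gene 103048635 showed the greatest rise of 449 that were called higher. It is 4809 bases long in the deposited table. The libraries held 36.2 and 12.8 CPM at 4DPF, against 2.55 and 0.684 CPM at 1DPF. The 2 4DPF libraries were unequal, yet the lower of them was 5.02-fold above the higher 1DPF library. The log2 fold change was 3.92 (SE 0.69, edgeR adjusted p = 0.0269). Without 4DPF replicate 1 it was 2.98 (edgeR adjusted p = 0.0877), without 1DPF replicate 2 it was 3.27 (edgeR adjusted p = 0.104), and without 1DPF replicate 1 it was 5.16 (edgeR adjusted p = 0.045). Ventricle at 6DPF had 33.3 and 18.5 CPM and fasted ventricle 5.68 and 6.60 CPM. Both late groups were thus above the fasted libraries as well as above 1DPF. The 6DPF levels helped this gene reach the abundance cut, so they are not independent of its choice.

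Gene 103067417, with the next largest rise, followed another course. Its length is 2633 bases. It stood at 37.6 and 58.9 CPM at 4DPF, against 5.38 and 1.32 CPM at 1DPF, a log2 fold change of 3.85 (SE 0.54, edgeR adjusted p = 0.0173). The 6DPF libraries had 138.6 and 141.3 CPM and the fasted libraries 118 and 132.9 CPM. The 4DPF values thus lay between the 1DPF libraries and the 4 others, without overlap. Leaving out 1DPF replicate 1 or 2 changed the log2 fold change to 5.19 or 3.17 (edgeR adjusted p = 0.0104 and 0.0469).

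Gene 103052612 had the deepest fall of 321 genes called lower at that abundance. It is 2022 bases long. It was at 31.9 and 37.0 CPM at 4DPF, against 544 and 374 CPM at 1DPF, and the nearest libraries of the 2 groups were 10.1-fold apart. The log2 fold change was -3.74 (SE 0.40, edgeR adjusted p = 0.00973), and without 4DPF replicate 1 it was -3.63 (edgeR adjusted p = 0.0562). At 34.9 and 43.1 CPM at 6DPF and 39.9 and 90.95 CPM in fasted ventricle, the other 4 libraries were all far below 1DPF, and both 4DPF values were under both fasted values.

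Gene 103062969, the next, is 2876 bases long and was at 305.4 and 236.6 CPM at 4DPF, against 1152 and 1604 CPM at 1DPF. The log2 fold change was -2.35 (SE 0.27, edgeR adjusted p = 0.0127), and without 1DPF replicate 2 it was -2.08 (edgeR adjusted p = 0.0516). The 6DPF libraries stood at 109.8 and 86.7 CPM and the fasted libraries at 108.9 and 72.4 CPM. Unlike gene 103052612, it was at 4DPF still above both fasted libraries. These 4 genes were picked on the same libraries that give their values, which favours large fitted changes.

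**Figure D2:**
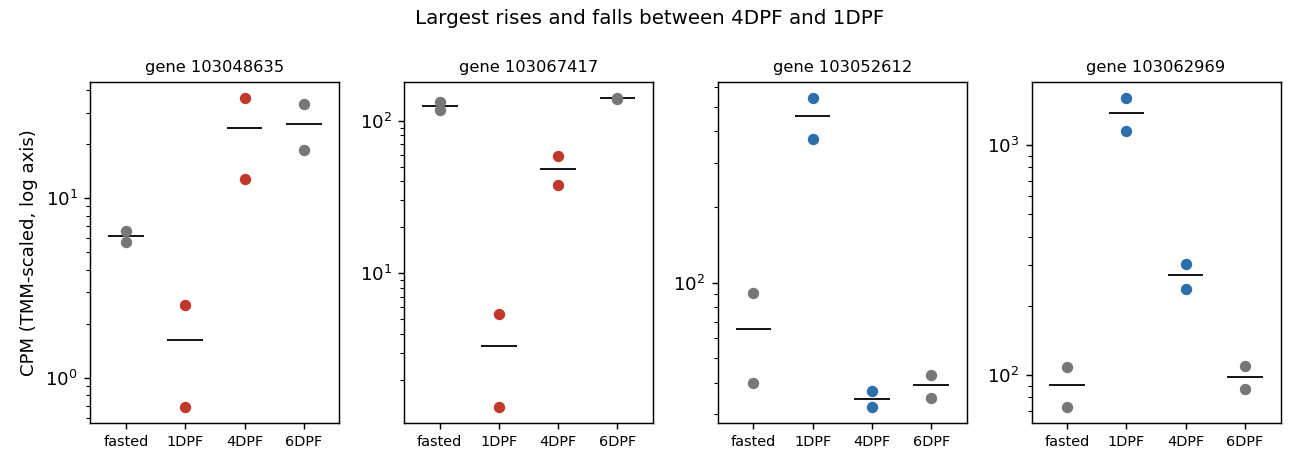
CPM on a log axis in each library (points) and group mean (bars) for the 2 genes with the largest rise and the 2 with the largest fall; each panel has its own scale. Coloured points are the 4DPF and 1DPF libraries compared, and grey points are the 6DPF and fasted libraries. Gene 103067417 at 4DPF sits between its 1DPF and fasted values, and gene 103052612 at 4DPF is at 31.9 and 37.0 CPM.

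The called genes were sorted by where their fasted mean lay, and each class is given beside its share of all tested genes whose 4DPF mean differed from the 1DPF mean in the same direction, called or not. Of the 673 rises, 395 (58.7%) had a fasted mean between the 1DPF and 4DPF means, with medians of 12.4 CPM when fasted, 8.23 at 1DPF, 18.8 at 4DPF and 19.4 at 6DPF. In 215 (31.9%) the fasted mean was above the 4DPF mean, with medians, in that order, of 38.4, 12.1, 24.2 and 36.2 CPM. In the remaining 63 (9.36%) the fasted mean was below the 1DPF mean, with medians of 3.96, 7.86, 18.4 and 10.5 CPM. Over the 8183 tested genes with a higher 4DPF mean, the shares of these 3 classes were 28.9%, 41.6% and 29.5%. A fasted mean between the others was thus more frequent among the rises and one below 1DPF less frequent, as descriptions with no test; the wider the step between 1DPF and 4DPF, the more readily another value falls inside it. The 4DPF and fasted libraries did not overlap in 339, 163 and 63 genes of the 3 classes, and in 49.7%, 58.9% and 78.9% of all tested genes of the same classes. For the 63 this was nearly certain beforehand, as both 4DPF libraries of every called rise lie above both 1DPF libraries. The classes were read from means of 2 libraries, and membership was not tested.

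The 6DPF libraries were not used to sort genes into the classes. In the class still short of the fasted level, the 6DPF mean was above the 4DPF mean in 196 of 215 genes, with a median log2 difference of 0.45, and in 79.8% of all tested genes of that class. In the class that had passed the fasted level, it was above in 184 and below in 211 of 395, with a median of -0.06, against 42.2% above and 57.8% below over all tested genes of the class. In the class already raised at 1DPF, it was below in 55 of 63, with a median of -0.63, and in 79.3% of all tested genes of the class. The 4DPF means enter both the class and this difference, and much of this pattern was present over all tested genes.

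Of the 373 falls, 192 (51.5%) were at 4DPF still above their fasted mean, with medians of 25.5 CPM when fasted, 51 at 1DPF, 31 at 4DPF and 23.7 at 6DPF. Another 166 (44.5%) were below it, at 24.9, 34.4, 20.5 and 19.2 CPM, and in 15 (4.02%) the fasted mean was above that of 1DPF. Over the 8803 tested genes with a lower 4DPF mean these shares were 42.1%, 26.4% and 31.5%. The 4DPF and fasted libraries did not overlap in 149 of the 192, 127 of the 166 and all 15 of the last class. Over all tested genes of these classes the shares were 57.8%, 41.8% and 84%. For the 15 this was again nearly certain beforehand. The 6DPF mean was below the 4DPF mean in 180 of the 192 still above the fasted level, and in 86 of the 166 below it, against 79.6% and 44% of all tested genes of these classes. In 339 of the 373 falls (90.9%) the 1DPF libraries were above all 6 others, and in 511 of the 673 rises (75.9%) they were below all 6 others. Over all tested genes these shares were 15.6% and 15%, but separation from 4DPF comes with every call. Of the 4916 tested genes with both 4DPF libraries below both 1DPF libraries, 2644 had 1DPF above all 6 others. Of the 4629 with both 4DPF libraries above, 2551 had 1DPF below all 6 others.

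In 327 of the 673 rises (48.6%) the 4DPF and 6DPF libraries were all above the fasted and 1DPF libraries. This held in 6% of all tested genes, or in 1019 of the 4629 with both 4DPF libraries above both 1DPF libraries. In 114 of the 373 falls (30.6%) the 4DPF and 6DPF libraries were all below. This held in 5.52% of all tested genes, or in 937 of the 4916 with both 4DPF libraries below both 1DPF libraries. The 4DPF libraries alone topped all 6 others in 175 rises (26%), and they alone were under all 6 others in 54 falls (14.5%). The shares of all tested genes, 5.71% and 4.48%, are no like comparison, as separation from 1DPF comes with every call. Of the 4629 tested genes with both 4DPF libraries above both 1DPF libraries, 970 had 4DPF above all 6 others. Of the 4916 with both below, 761 had 4DPF under all 6 others, so the falls showed no excess.

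**Figure D3:**
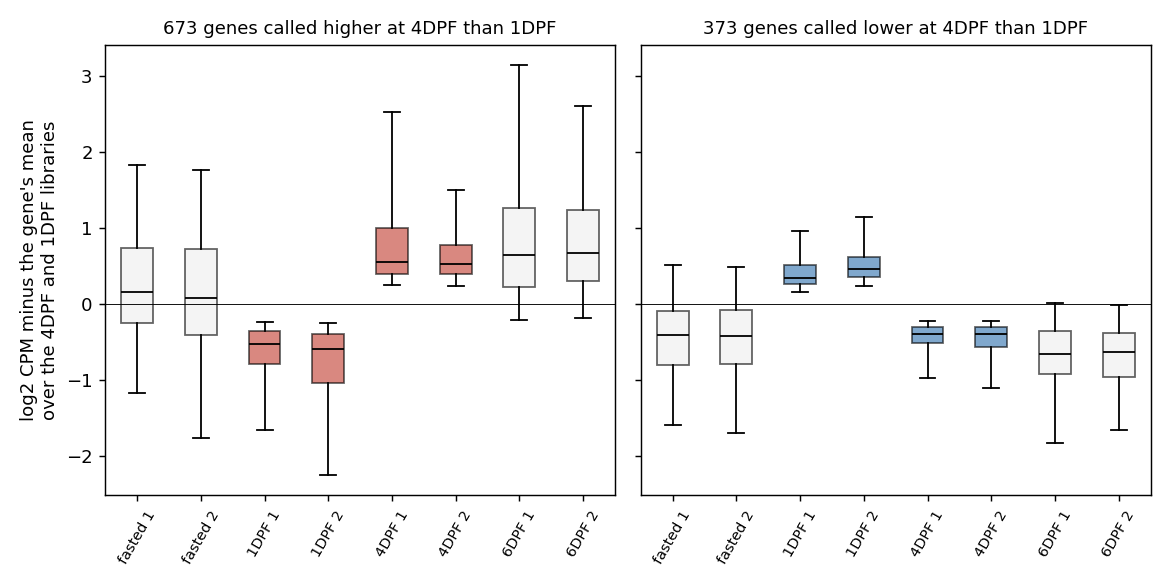
Log2 CPM in each library relative to the gene's mean over the 4DPF and 1DPF libraries, for the genes called higher (left) and lower (right) at 4DPF. Boxes span the quartiles with the median, and whiskers the 5th to 95th percentiles over genes; coloured boxes are the 4DPF and 1DPF libraries. Among the rises the medians were 0.64 and 0.67 in the 6DPF libraries and 0.15 and 0.07 in the fasted libraries; among the falls they were -0.66 and -0.64 at 6DPF and -0.41 and -0.43 when fasted.

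The difference between 6DPF and fasted ventricle, which uses none of the 4 libraries compared here, had the sign of the 4DPF change in most called genes. Both 6DPF libraries were above both fasted libraries in 408 of the 673 rises (60.6%) and below them in 87 (12.9%). Over all tested genes these shares were 24.1% and 25%. Among the 373 falls, both 6DPF libraries were above both fasted libraries in 47 (12.6%) and below in 203 (54.4%). The median log2 difference of 6DPF minus fasted was 0.31 for the rises, -0.20 for the falls and -0.01 for all tested genes. Both sets of libraries share the estimate of spread behind the calls, which favours genes with little spread within any group. Another rule took tested genes with the nearest 4DPF and 1DPF libraries at least 2-fold apart. Apart from the filter for tested genes and the scaling, it did not use the 6DPF and fasted libraries. It gave 271 of 466 (58.2%) above for rises and 84 of 191 (44%) below for falls. Over the other settings that called genes, the shares were between 42.9% (3 of 7 genes) and 73% for rises and between 37.5% (3 of 8 genes) and 66.7% (4 of 6 genes) for falls.

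The largest rises started from a very low level. All 38 genes that rose at least 16-fold had a mean under 1 CPM at 1DPF and a 4DPF mean of at most 19 CPM. Their median count was 200 and 79 reads in the 4DPF libraries, against 5.5 and 3 reads in the 1DPF libraries, and by group their medians were 0.344 CPM when fasted, 0.115 at 1DPF, 3.54 at 4DPF and 6.09 at 6DPF. At such counts the fitted fold depends on the prior count and gives no bound, so the set holds the genes at least 16-fold up by the fit. In 37 of the 38 both 6DPF libraries were above both fasted libraries, against 24.1% of all tested genes. All tested genes had a median of 13.5 CPM when fasted, so these shares are not at like abundance. In 37 of the 38, too, 4DPF replicate 1 was above 4DPF replicate 2. That order was not counted over all tested genes. With 4DPF replicate 1 or 2 left out edgeR called 9 and 35 of them. With 1DPF replicate 1 or 2 left out it called 13 and 0 (all 38 had an unadjusted p under 0.05 in the last), while DESeq2 on all libraries called 38 and limma voom 19. All 38 stayed positive in each of these fits, which the separation of their 4DPF and 1DPF libraries made nearly certain beforehand.

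The wider set of 143 genes that rose at least 4-fold had medians of 1.06 CPM when fasted, 0.447 at 1DPF, 5.46 at 4DPF and 6.09 at 6DPF. Both 6DPF libraries were above both fasted libraries in 114 of them and below in 7, against 24.1% and 25% of all tested genes, again not at like abundance. Again 4DPF replicate 1 was the higher 4DPF library in 121 of 143, and 1DPF replicate 1 was the higher 1DPF library in 111. Neither order was counted over all tested genes. Scarce genes in general were higher in 1DPF replicate 1. Its median log2 difference from 1DPF replicate 2 was 0.26 in the least abundant of 5 bins of tested genes and -0.12 in the most abundant. At 4DPF the same difference was 0.00 and -0.01. Of these 143, edgeR called 28 and 111 with 4DPF replicate 1 or 2 left out, and 47 and 3 with 1DPF replicate 1 or 2 left out, while DESeq2 called 142 and limma voom 79. In these fits the median log2 fold change was 2.56 to 3.49. All 143 kept their sign, as the separation of their libraries made nearly certain. The 21 genes that fell at least 4-fold had medians of 2.23, 10.2, 0.892 and 0.727 CPM in the order fasted, 1DPF, 4DPF and 6DPF. In 13 of these 21 both 6DPF libraries were below both fasted libraries, and in 2 above. The shares of all tested genes were 25% and 24.1%, also not at like abundance. Of the 21, edgeR called 2 and 5 with 4DPF replicate 1 or 2 left out, and 11 and 2 with 1DPF replicate 1 or 2 left out, while DESeq2 called 19 and limma voom 15. Their median log2 fold change was -3.05 to -2.41 over these fits, and all 21 kept their sign, again nearly certain beforehand.

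Among genes averaging at least 3 in log2 CPM, the 15 largest rises had log2 fold changes of 2.11 to 3.92 (edgeR adjusted p between 0.00973 and 0.0361). The average takes in the fasted and 6DPF libraries, so high levels there helped genes enter. The medians of these 15 rises were 19.5 CPM when fasted, 4.23 at 1DPF, 28.8 at 4DPF and 36.3 at 6DPF. The fasted mean was above the 4DPF mean in 7 of them and below it in 8, and both 6DPF libraries were above both fasted libraries in 9. The 15 largest falls ran from -3.74 to -1.50 (edgeR adjusted p between 0.00916 and 0.0433), with medians of 22.5, 50.3, 15.1 and 17.1 CPM. Both 6DPF libraries were below both fasted libraries in 6 of the 15, above in 2, and overlapped in 7. Over all tested genes these shares were 25% below, 24.1% above and 51% overlapping.

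The balance of rises and falls differed with abundance and length. With the tested genes in 5 bins of equal size by mean CPM, 55 rises and 11 falls were called in the lowest bin (median 0.692 CPM), or 1.62% and 0.324% of its genes. In the highest bin (median 95.6 CPM) there were 150 rises and 111 falls, or 4.42% and 3.27%. The median log2 fold change over all genes of a bin was 0.08 in the lowest and -0.04 in the highest. Its sign differed between the pairs of replicates with the same number. For replicates 1 and 2 it was -0.10 and 0.29 in the lowest bin, and 0.02 and -0.09 in the highest. The median standard error of the log2 fold change was 0.58 in the lowest bin and 0.16 in the highest. The smallest change called was 1.29 and 0.50, so no smaller change was called among the scarcest transcripts. The part of depth in this was not tested. By length, the shortest bin (median 845 bases) held 117 rises and 30 falls, or 3.44% and 0.883%, and the longest (median 5850 bases) 119 rises and 84 falls, or 3.5% and 2.47%. The median log2 fold change over all genes of a bin went down from 0.06 in the shortest to -0.08 in the longest. Within each pair of replicates with the same number it was 0.06 and 0.09 in the shortest bin and -0.03 and -0.09 in the longest. Between the 2 libraries of a group, replicate 1 minus replicate 2 was -0.05 in the shortest bin and 0.09 in the longest at 4DPF, and -0.06 and -0.01 at 1DPF. The part of transcript length in the calls was addressed by removing each library's length trend, after which 619 rises and 456 falls were called.

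**Figure D4:**
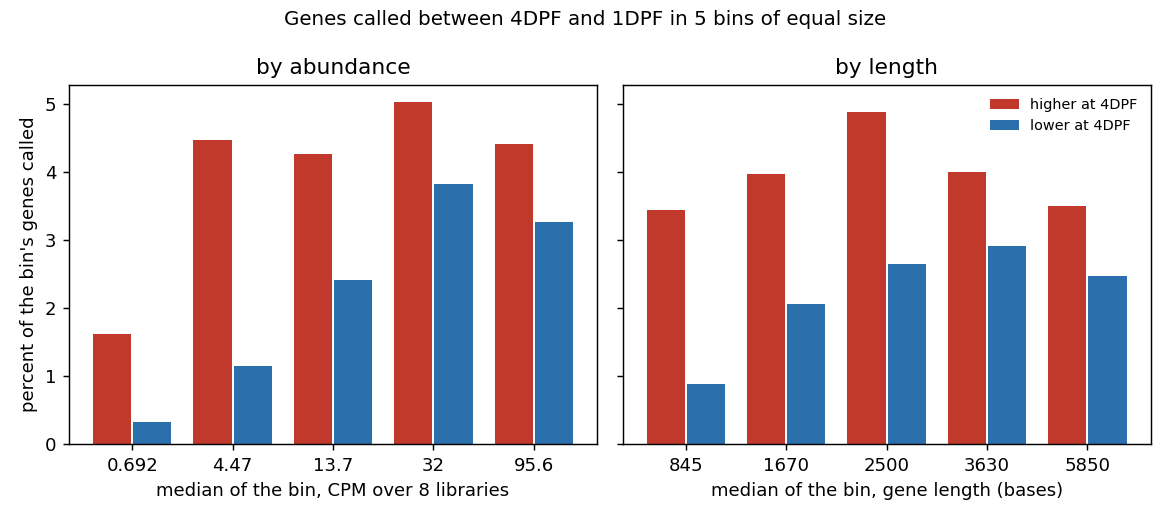
Percent of genes called higher (red) and lower (blue) at 4DPF than at 1DPF in 5 bins of equal size, by mean CPM over 8 libraries (left) and by gene length in bases (right), with the median of each bin below it. Falls make up 0.324% of the least abundant bin and 0.883% of the shortest one.

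The share of rises among the calls differed with the scaling and with the libraries kept. With TMM factors 64.3% of the 1046 calls were rises. With total counts alone 555 rises and 479 falls were called, so 53.7% were rises, while the median log2 fold change over all tested genes moved by less than 0.1, to -0.07. The share was 65.1% with RLE factors. It was 91.7% and 86.9% with 4DPF replicate 1 or 2 left out, and 62.3% and 46.7% with 1DPF replicate 1 or 2 left out. The last of these shares rests on the fewest calls and gives little hold on the balance. The excess of at least 4-fold rises over 4-fold falls was not recounted under these settings.

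**Figure D5:**
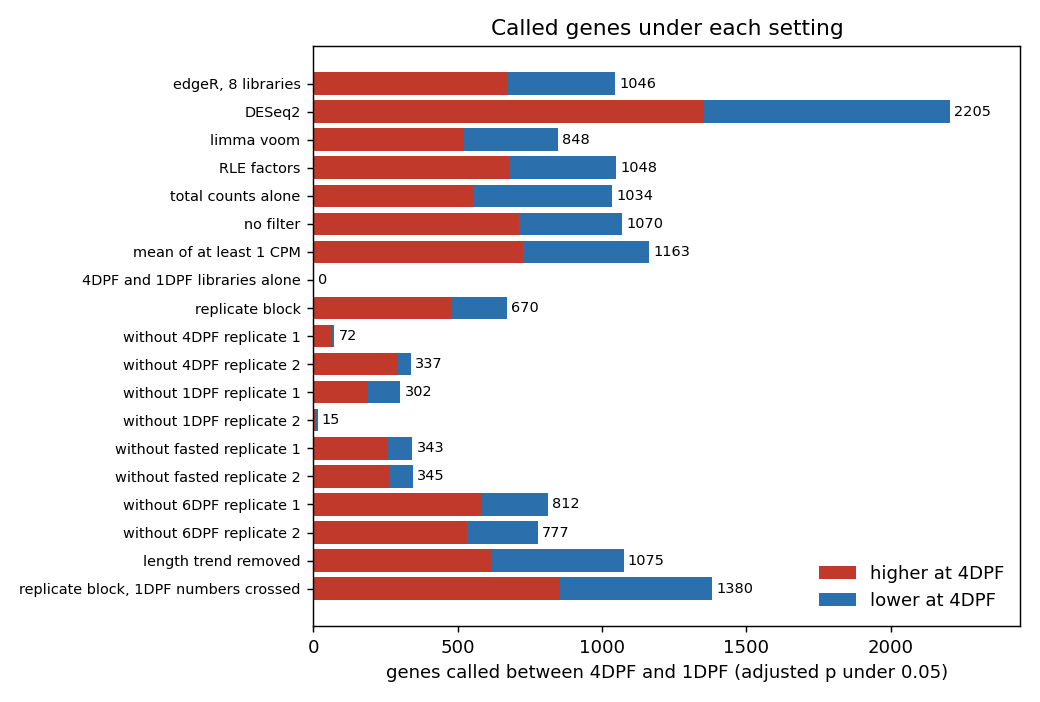
Number of genes called between 4DPF and 1DPF under each setting, split into higher (red) and lower (blue) at 4DPF, with the total at the end of the bar. The total is 1046 with edgeR on 8 libraries, 2205 with DESeq2, 15 without 1DPF replicate 2 and 0 with the 4DPF and 1DPF libraries alone.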

How the data were processed

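Poly-A RNA of 8 python ventricle libraries was measured by paired-end sequencing. The deposited table holds unnormalized counts of reads for each gene and a gene length, per the file headers. HISAT2 2.1.0, Trimmomatic 0.36, featureCounts, SAMtools 1.8 and DESeq2 1.36.0 are among the authors' tools in the submitters' processing notes. The genome build, annotation, strand and settings were not given in the sources used here, so counts of overlapping, antisense or near-identical genes are uncertain. Columns were matched to samples by description label.

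A minimum count of 10 and a minimum total of 15 (edgeR's filterByExpr) left 16986 of 21368 genes, which held at least 99.98% of each library's reads. TMM-scaled counts of all 8 libraries entered 1 fit by group (quasi-likelihood, glmQLFTest in edgeR 4.0.16 under R 4.3.3). The biological coefficient of variation was 21.9%, with 4 residual degrees of freedom and 3.79 from the prior. Tests were two-sided. Standard errors came from the fold change and F. Log2 CPM used a prior count of 2, which understates differences between libraries in low genes. Levels are TMM-scaled CPM; shares of reads use totals. The steps were tested on simulated counts. Alternatives used DESeq2 1.42.0 and limma 3.58.1 (voom).

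Members, lists and rules were chosen with earlier results of these data known. With no symbols, the naming rule gave the 2 called genes with the largest rise and the 2 with the largest fall, non-overlapping and averaging at least 3 in log2 CPM. The 44 gene and marker lists written by symbol were not used.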

Additional observations from a re-analysis of the deposited data

How the results depend on the processing

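Of the 1046 calls, 823 were also called by both DESeq2 and limma voom, and 508 under all settings that kept 8 libraries, apart from the crossed block. Only 6 stayed called with each of the 8 libraries left out in turn, and none was called with the other sign under any setting. With the 4DPF and 1DPF libraries apart in every called gene, another sign was hardly possible. Counts of 848 (limma voom), 1048 (RLE factors), 1034 (total counts alone), 1070 (no filter), 1163 (mean of at least 1 CPM) and 1075 (length trend removed) stayed within 1.5 times of 1046. DESeq2 called 2205 and the 4 libraries alone 0 (edgeR, 3758 at an unadjusted p under 0.05; lowest adjusted p 0.0514). With 1 library left out the count ran from 15 to 812, and leaving out fasted replicate 1 or 2 gave 343 and 345. Why these counts differ was not tested. A replicate block, with the number as a term, gave 670 calls, 479 higher and 191 lower. The labels do not say that a number links groups, and replicate 1 minus 2 in 4DPF correlated at -0.34 with that in 1DPF across genes, with the other pairs of groups between -0.20 and 0.43, so the numbers were not taken as pairs. With the 1DPF numbers exchanged (crossed block), 1380 were called. Crossing and length trend were added after seeing the data. Over 18 settings gene 103048635 missed the threshold in 6 (adjusted p from 7.53e-05 to 0.104), including limma voom (0.0538) and without fasted replicate 1 or 2 (0.0544 and 0.0543). Genes 103052612 and 103062969 missed it in 2 each (from 1.87e-24 to 0.0562 and from 1.62e-16 to 0.0663) and gene 103067417 in 1 (from 6.02e-07 to 0.0813), each with the 4 libraries alone among them. No sign changed. The planned counts of list members were not run, as no identifier was matched to a symbol. Scarce genes had larger standard errors, as given by abundance bin, and the part of depth was not tested.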

Other observations

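Some transcripts moved in 1 library and not in its replicate. With at least 10 CPM in the library and a level at least 4-fold above every one of the other 7, there were 14 such genes in 1DPF replicate 1, 3 in 4DPF replicate 2 and 2 in 1DPF replicate 2, and 0 in the other 5 libraries. Of these 19, 1 was called between 4DPF and 1DPF, against 6.16% of all tested genes. The most abundant one in 4DPF replicate 2 reached 642 CPM there, 42.9 CPM in fasted replicate 2 and as little as 0.399 CPM elsewhere, and its log2 fold change of 7.99 had a standard error of 2.81 (edgeR adjusted p = 0.125). The most abundant one in 1DPF replicate 1 stood at 297 CPM there and at 20.1 CPM in 1DPF replicate 2 (log2 fold change -4.35, SE 1.49, edgeR adjusted p = 0.119). These were picked out after their values were seen.

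Replicate differences within 4DPF and within 1DPF involved some of the same genes, in opposite senses by number. Of the 10246 genes averaging at least 3 in log2 CPM, 238 differed more than 2-fold between the 4DPF libraries and 280 between the 1DPF libraries. The 68 in both lists are 28.6% of the first and 24.3% of the second. In 62 of the 68 the higher library was replicate 1 in one group and replicate 2 in the other. What links these libraries was not tested.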
